A study of Homo sapiens with 9 samples.

Results

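The 9 arrays of the study fell into 2 sets that its groups do not explain. Set A holds 4 arrays, replicates 1 and 2 of the scrambled peptide group (SCR) and of the SID peptide group (SID). Set B holds the other 5 arrays, namely all 3 untreated arrays (UT) and replicate 3 of SCR and of SID. The sets were defined by the values themselves, as the arrays of each set resemble one another across all probes, and the study did not plan them. Levels in set A against set B are therefore a description and were given no test.

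RNA came from MDA-MB-231, an established human triple negative breast cancer cell line, in cells left untreated or given scrambled peptide or 2.5 µM SID peptide for 24 h. The SID peptide is a decoy of the domain by which transcription factors bind SIN3, a scaffold of gene repression, and the scrambled peptide is its control. Each group has 3 arrays (Affymetrix human gene arrays, 1 sample per array), and no label says whether replicates were separate cultures. The study's methods speak of a pair of independent biological replicates, which leaves the source of replicate 3 unstated, so p-values measure the spread between these samples, which may be technical. UT has no array in set A, so UT against peptide can be read only inside set B. A sheet of the study gives the replicate 3 arrays a prefix that the other arrays lack and heads SCR replicate 3 with a longer time than the labels state. Values are log2 signals per probe, and 18417 genes have a probe with 1 gene symbol.

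A cell population is told by its lineage genes, such as cadherins and keratins of epithelium or collagens and fibronectin of mesenchyme, and by state genes, which follow growth signals, nutrient stress or division. MDA-MB-231 is known as a mesenchymal-like line with high vimentin, CD44 and AXL, low E-cadherin and EPCAM, a lost CDKN2A gene and a truncated NF2 gene. These serve below as a check of the label.

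Across probes, arrays inside set B were alike, with Pearson's r from 0.9925 to 0.9969. Between the sets r lay between 0.9077 and 0.9293. Inside set A, SCR with SCR gave 0.9946, SID with SID gave 0.9929, and SCR with SID gave 0.9632 to 0.9762. SCR replicate 3 thus resembled UT and SID replicate 3 more than it resembled SCR replicates 1 and 2. The first principal component held 78.5% of the variance, with set A at 55.1 to 68.1 and set B at -51.0 to -48.2. The second held 13.8% and parted SCR (-36.1 and -35.1) from SID (22.6 and 41.0) in set A only, while set B stayed between -5.6 and 7.8.

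**Figure D1:**
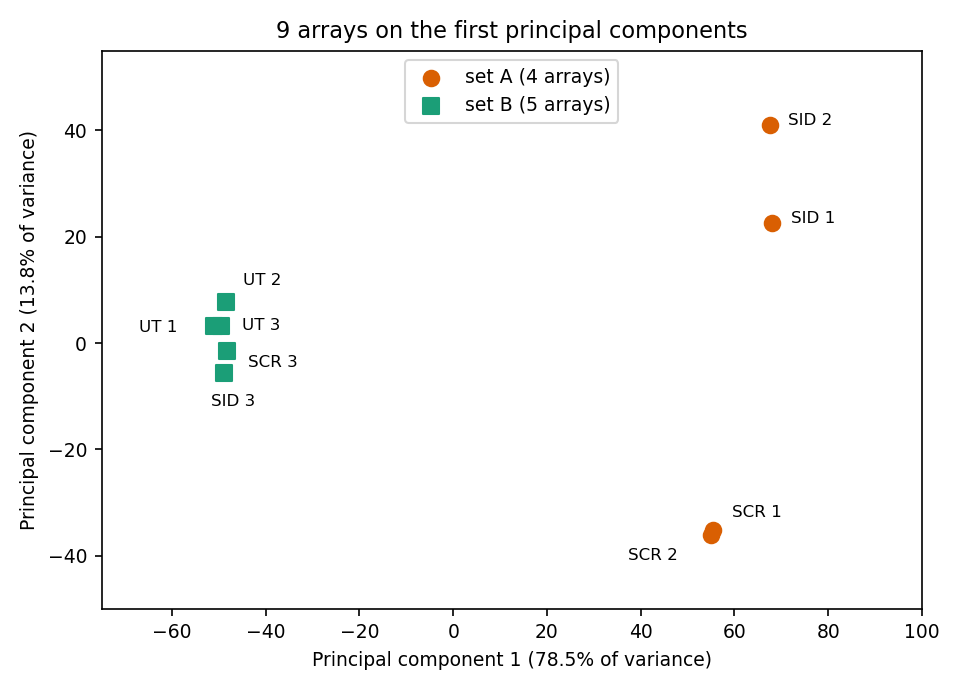
Each point is 1 array, placed by its scores on principal components 1 (x axis) and 2 (y axis) over all probes with 1 gene symbol. The 4 arrays of set A lie at 55.1 to 68.1 on the first component and the 5 arrays of set B at -51.0 to -48.2, and SCR and SID lie apart only in set A.

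A gene was counted as higher in 1 set where every array of that set lay above every array of the other and the means were over 1 log2 apart. By this count 1097 of 18417 genes (5.96%) were higher in set A and 841 (4.57%) were higher in set B. These shares come from the values that defined the sets, so nothing more is read from them. Means were over 4 log2 apart for 68 genes higher in set A and 47 genes higher in set B. The median gene differed by 0.20 log2 between the sets, while its range was 0.35 inside set A and 0.28 inside set B. Most genes hence did not part the sets, and a minority parted them by far more than the spread within either.

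The genes that mark the sets were at opposite ends of the signal range. EHF, an ETS transcription factor of epithelia, had 12.29 and 12.18 in SCR and 12.47 and 12.34 in SID of set A. Its set B values were 6.38 in SCR, 6.47 in SID and 6.10, 5.75 and 5.74 in UT. No array of set B came within 5 log2 of an array of set A for this gene. PLAC8, a small cysteine-rich protein first described in placenta, had 11.81 and 11.74 in SCR and 12.35 and 12.61 in SID of set A, against 5.50 in SCR, 5.85 in SID and 5.75, 5.92 and 5.69 in UT of set B. CST1, a secreted inhibitor of cysteine proteases, had 11.27 and 11.73 in SCR and 12.33 and 12.11 in SID of set A, against 5.64, 5.71, 5.64, 5.71 and 6.30 on the arrays of set B. Inside set A, SID lay above SCR on every array for PLAC8 and CST1, by 0.7 and 0.72 in the means, and for EHF by 0.17. None of these differences was called by limma, since a call also needed a difference over 1 log2. For PLAC8 the adjusted p of limma was 0.00504, for CST1 0.0644 and for EHF 0.436.

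The opposite order was held by PDE3A, BMP5 and PRG4. PDE3A, a phosphodiesterase that breaks down cyclic AMP, had 12.28 in SCR, 12.32 in SID and 12.26, 12.24 and 12.44 in UT of set B, against 6.34 and 6.34 in SCR and 6.10 and 6.06 in SID of set A. BMP5, a bone morphogenetic protein, had 11.19 in SCR, 11.18 in SID and 11.12, 11.15 and 11.27 in UT of set B, and 5.99, 5.80, 5.99 and 6.15 in set A. PRG4, the lubricating glycoprotein of joint surfaces, had 11.94 in SCR, 12.10 in SID and 11.54, 11.72 and 11.70 in UT of set B, and 6.34, 6.06, 6.06 and 6.30 in set A. Replicate 3 of both peptides lay with UT for each of these genes. Set A minus set B was 6.23 for EHF, 6.39 for PLAC8, 6.06 for CST1, -6.10 for PDE3A, -5.20 for BMP5 and -5.61 for PRG4.

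The promoter stretches read for 5 of these markers share a feature that the choice of genes did not use. Genes used in every cell mostly start in DNA rich in CG pairs, and tissue-restricted genes often do not. RefSeq promoters (GRCh38.p14) matched all markers but CST1, and the 250 bases before the start of 5 of them are shown with each CG in capitals, with SMAD4, described below, as a CG-rich gene that also parted the sets.
EHF, chr11:34624007-34624256, plus strand: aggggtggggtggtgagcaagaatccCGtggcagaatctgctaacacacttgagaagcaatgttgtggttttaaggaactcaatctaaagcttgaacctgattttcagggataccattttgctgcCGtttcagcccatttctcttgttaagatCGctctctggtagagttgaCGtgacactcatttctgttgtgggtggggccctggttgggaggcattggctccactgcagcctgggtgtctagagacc
PLAC8, chr4:83114730-83114979, minus strand: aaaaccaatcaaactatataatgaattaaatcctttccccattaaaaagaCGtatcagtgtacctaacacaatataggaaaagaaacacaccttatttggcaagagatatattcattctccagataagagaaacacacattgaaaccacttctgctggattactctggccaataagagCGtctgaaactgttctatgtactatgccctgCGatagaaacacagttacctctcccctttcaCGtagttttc
PDE3A, chr12:20571829-20572078, plus strand: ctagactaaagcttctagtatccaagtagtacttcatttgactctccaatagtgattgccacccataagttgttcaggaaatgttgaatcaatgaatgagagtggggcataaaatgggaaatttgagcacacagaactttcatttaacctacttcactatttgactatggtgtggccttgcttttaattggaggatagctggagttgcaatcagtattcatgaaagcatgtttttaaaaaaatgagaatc
BMP5, chr6:55875591-55875840, minus strand: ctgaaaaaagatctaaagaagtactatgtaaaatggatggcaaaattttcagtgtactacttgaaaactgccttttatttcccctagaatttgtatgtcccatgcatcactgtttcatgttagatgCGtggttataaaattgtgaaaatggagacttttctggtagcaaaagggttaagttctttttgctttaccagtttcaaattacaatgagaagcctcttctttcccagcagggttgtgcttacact
PRG4, chr1:186296023-186296272, plus strand: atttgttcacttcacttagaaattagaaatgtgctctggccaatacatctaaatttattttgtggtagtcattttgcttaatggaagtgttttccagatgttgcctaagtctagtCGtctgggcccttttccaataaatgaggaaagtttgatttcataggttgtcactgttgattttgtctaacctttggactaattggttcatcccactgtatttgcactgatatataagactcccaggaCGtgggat
SMAD4, chr18:51029963-51030212, plus strand: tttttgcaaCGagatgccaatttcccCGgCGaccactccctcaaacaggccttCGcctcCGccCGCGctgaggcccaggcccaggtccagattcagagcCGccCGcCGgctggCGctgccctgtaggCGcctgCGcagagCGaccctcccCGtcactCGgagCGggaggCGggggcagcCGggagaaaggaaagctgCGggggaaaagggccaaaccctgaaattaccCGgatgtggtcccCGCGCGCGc
These windows held 4 CG in EHF, 4 in PLAC8, 0 in PDE3A, 1 in BMP5 and 2 in PRG4, but 25 in SMAD4. Only 1 window was read per gene, so any other start of a gene, with its own CG count, is not covered. Over all 14237 genes with a promoter the median was 18, and 21.7% had 5 or fewer. Genes higher in set A had a median of 20 and genes higher in set B of 19, with 14.7% and 14.6% at 5 or fewer. Among 2818 genes with a promoter that were high on all 9 arrays, the median was 22 and 4.4% had 5 or fewer. Beside all genes, the low CG count of the marker windows was hence not shared by the genes that parted the sets at large. Beside steadily high genes, the genes that parted the sets had a larger share at 5 or fewer.

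Some genes were low on every array of 1 set (under 6.85 log2, the 25th percentile of probe means) and high on every array of the other (over 10.03, the 75th percentile). There were 22 such genes high in set A (0.119%) and 22 high in set B (0.119%). High in set A were, beside EHF, PLAC8 and CST1, the cytokines IL1A and IL1B, the adhesion receptors ADGRF1 and ADGRF5, the class II histocompatibility gene HLA-DPA1, the pentraxin PTX3, the ETS factor ETV1 and the signal transducer SMAD4. High in set B were, beside PDE3A, BMP5 and PRG4, the skin caspase CASP14, the protease inhibitor A2M, the homeobox gene ALX1, the actin-severing protein SCIN, the microfibril protein FBN2, the tumour antigen PRAME and the kinase MAP2K6. Of those with a promoter in the table, 36.8% of 19 high in set A and 43.8% of 16 high in set B had 5 or fewer CG, the markers among them. The table holds no detection calls, so a low signal is not shown to be no expression, and in bulk RNA fewer cells with a transcript cannot be told apart from less of it per cell.

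**Figure D2:**
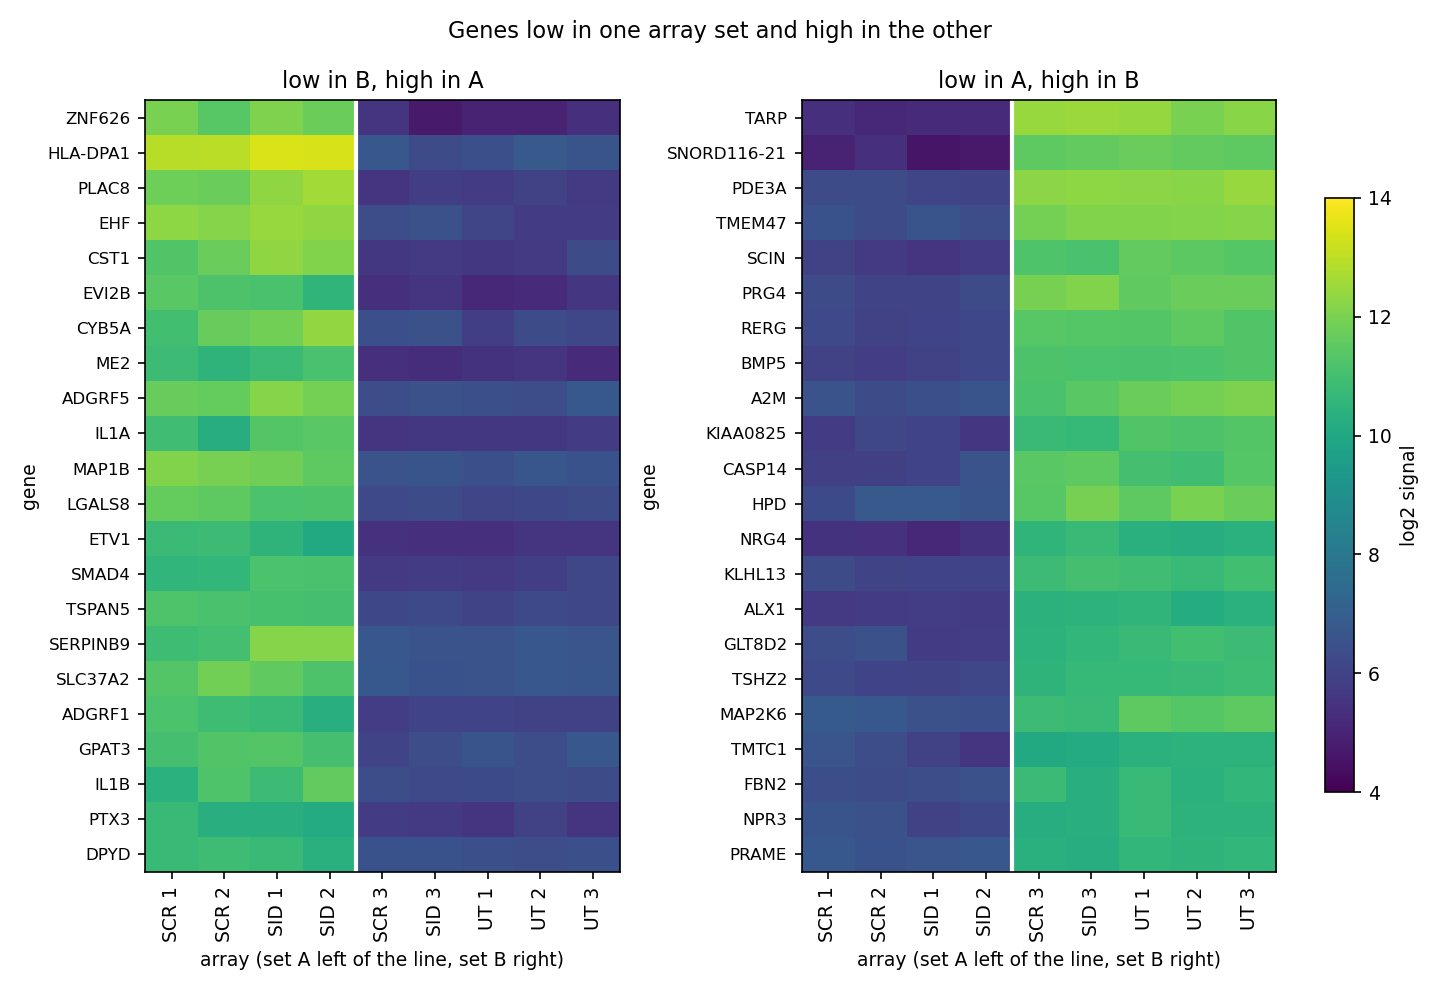
Colour gives the log2 signal of each gene (rows) on each array (columns), with set A left of the white line and set B right of it. The 22 genes of the left panel are over 10.03 on all set A arrays and under 6.85 on all set B arrays, and the 22 of the right panel show the reverse.

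The widest gaps lay beyond the markers. STEAP4, a metalloreductase, had 6.63 and 7.74 in SCR and 6.05 and 5.56 in SID of set A, against 13.59 to 13.89 on the 5 arrays of set B, a difference of means of -7.25. Set A minus set B was -6.13 for CPS1, the first enzyme of the urea cycle, and -5.62 for BMP2, another bone morphogenetic protein. In the other direction HLA-DPA1 stood 6.62 higher in set A, ANKRD1, a YAP target, 6.29 higher, NT5E, the ectoenzyme CD73, 6.12 higher, SAA2, an acute phase protein, 6.04 higher and EMP1, a membrane protein, 5.72 higher. For 3 of the widest gaps the probes of a gene disagreed in size. TARP, a transcript of the T cell receptor gamma locus, differed by -7.09 on its brightest probe and by -0.07 on the probe with the smallest gap, the zinc finger gene ZNF626 by 6.68 and 2.80, and SAA2 by 6.04 and 4.13.

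Genes listed as high in MDA-MB-231 were counted in set A alone. Of 13 measured, 9 were higher in set A and 0 in set B, with a median difference of 1.93 beside -0.01 over all genes. This median was 1.56 with set B as SCR and SID replicate 3 alone, and 1.70 without SID replicate 2. The shares of all genes were 5.96% and 4.57%. CD44, the hyaluronan receptor, had 13.25 and 13.25 in SCR and 13.17 and 13.21 in SID of set A, against 10.84 in SCR, 10.73 in SID and 10.68, 10.72 and 10.77 in UT of set B. The receptor kinase AXL stood 3.16 higher in set A, the protease PLAU 3.36 and the chemokine CXCL8 4.16. VIM, the mesenchymal filament vimentin, was high in both sets, at 13.19 to 13.34 in set A and 12.75 to 13.01 in set B.

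Genes listed as low in the line parted the sets in both directions. Of 13 measured, 5 were higher in set A and 2 in set B, beside 5.96% and 4.57% of all genes, with a median difference of 1.00. EPCAM, an epithelial adhesion molecule, had 10.78 and 10.94 in SCR and 9.74 and 10.14 in SID of set A, and 6.14 to 6.87 in set B. CDH1, which codes for E-cadherin, had 10.13 and 11.08 in SCR of set A, but 7.05 and 7.26 in SID of set A and 6.73 to 6.91 in set B. GRHL2, a regulator of epithelial genes, had 8.77 and 9.43 in SCR of set A, against 6.50 and 6.53 in SID of set A and 6.46 to 6.66 in set B. High E-cadherin and GRHL2 were thus seen in SCR of set A and on no other array.

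In the 9p21 region, where CDKN2A is lost in the labelled line, several genes had signal in set B and, at a lower level, in SCR of set A. CDKN2A, the cell cycle inhibitor p16, had 10.97 in SCR, 11.17 in SID and 10.97, 11.21 and 10.96 in UT of set B, against 9.91 and 10.03 in SCR and 7.85 and 7.58 in SID of set A. MTAP, a neighbouring enzyme of methionine salvage, had 9.31 to 9.52 in set B, 8.19 and 8.35 in SCR and 6.43 and 6.36 in SID of set A. KLHL9, a ubiquitin ligase adaptor nearby, had 10.53 to 10.78 in set B, 7.98 and 8.37 in SCR and 6.20 and 6.31 in SID of set A. For all 3 genes SCR of set A lay between SID of set A and set B, without overlap. The neighbouring MIR31HG did not have this order, with 8.56 and 9.56 in SCR and 5.65 and 6.23 in SID of set A, against 7.78 to 8.80 in set B. CDKN2B had 9.15 to 9.80 in set B, with SCR (8.62 and 8.61) and SID (8.34 and 8.10) of set A close together. Of 8 measured genes listed for the region, 4 were higher in set B, beside 4.57% of all genes. NF2, the tumour suppressor merlin, had the order of CDKN2A. It had 10.64 to 10.97 in set B, 9.48 and 9.90 in SCR and 8.02 and 8.21 in SID of set A. All arrays carry the MDA-MB-231 label, and which cells gave the RNA of each set was not tested.

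SMAD4, the shared partner of TGF-beta and BMP receptors' SMAD proteins, was low across set B. It had 10.60 and 10.61 in SCR and 11.18 and 11.14 in SID of set A, against 5.69 in SCR, 5.76 in SID and 5.71, 5.84 and 6.11 in UT of set B. Its neighbours on chromosome 18 were read after these values were seen, with 5 measured genes on either side. ME2, a mitochondrial malic enzyme, had 10.50 to 11.11 in set A and 5.24 to 5.55 in set B. MEX3C, an RNA-binding ubiquitin ligase, had 9.41 to 10.23 in set A and 6.89 to 7.17 in set B. ELAC1, which lies between ME2 and SMAD4, was at 5.50 to 6.05 on all arrays, as was DCC, beyond MEX3C, at 5.49 to 5.72. The next gene, the methyl-CpG binding MBD2, had 10.10 to 10.53 on all arrays. In this stretch, ME2, SMAD4 and MEX3C were thus the ones counted as higher in set A. ELAC1 and DCC were under 6.85, the limit used above for low genes, on every array. A lower level in set B could therefore hardly have been seen for them.

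BMP and TGF-beta genes parted the sets in both directions, with 6 of 25 measured higher in set A, 4 higher in set B and a median of 0.05. Over all genes, 5.96% were higher in set A and 4.57% in set B. Among ligands, BMP2, BMP5 and BMP6 were higher in set B, whereas BMP4 was higher in set A. BMP4 had 12.28 and 11.88 in SCR and 12.32 and 11.58 in SID of set A, against 6.77 to 7.02 in set B. Set A minus set B was -3.27 for BMP6. The type II receptor TGFBR2 stood 1.23 higher and the ligand TGFB2 2.12 higher in set A. The inhibitory SMAD7 differed by 0.76 and the target ID3 by -0.04, neither of them counted.

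Of 28 inflammatory genes measured 13 were higher in set A and 1 in set B, beside 5.96% and 4.57% of all genes, with a median of 0.99. IL1A, a cytokine that starts inflammation, had 10.95 and 10.24 in SCR and 11.32 and 11.46 in SID of set A, against 5.51 to 5.72 in set B. IL1B stood 4.72 higher, the chemokine CXCL8 4.16, the acute phase gene SAA1 4.24 and the growth factor CSF1 3.91. PTGS2, the inducible cyclooxygenase, was the member higher in set B (-1.57). The interferon list had 10 of 32 higher in set A and 2 in set B, led by the RNA sensor RIGI (2.79), IFIT2 (2.61), IFI27 (2.55) and HERC5 (2.45). The antiviral OAS1 went the other way, at -1.65.

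Growth signal and protease genes were counted more often as higher in set A than in set B, beside 5.96% and 4.57% of all genes. Of 20 immediate early and AP-1 genes 10 were higher in set A and 2 in set B, with a median of 0.62. DUSP6 and SPRY4, feedback inhibitors of ERK signalling, stood 4.33 and 3.32 higher, and the AP-1 subunits JUN and FOSL1 stood 3.55 and 2.64 higher. FOS, their classical partner, differed by -2.11. Of 31 proteases and inhibitors 14 were higher in set A and 2 in set B, with a median of 0.80 that was 0.42 without SCR replicate 2. The plasminogen activator PLAT stood 4.42 higher, the membrane collagenase MMP14 4.41 and the secreted collagenase MMP1 3.81, though MMP1 had 8.18 on SID replicate 2 beside 10.08 to 10.76 on the other set A arrays.

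Amino acid synthesis and phosphodiesterase genes, where counted, were higher in set B, beside 4.57% of all genes. Of 24 measured targets of ATF4, the factor of the amino acid response, 11 were higher in set B and 0 in set A, with a median of -0.81. PHGDH, the first enzyme of serine synthesis, had 12.55 in SCR, 12.89 in SID and 12.86, 13.19 and 13.03 in UT of set B, against 10.07 and 10.37 in SCR and 7.98 and 7.94 in SID of set A. Set A minus set B was -3.35 for CTH, which makes cysteine, and -3.45 for ALDH1L2, a mitochondrial folate enzyme. Of 15 phosphodiesterases 7 were higher in set B and 0 in set A, among them PDE8B (-3.76), PDE3B (-2.89) and PDE4D (-1.94) beside PDE3A.

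Other state lists had fewer members counted. Over all genes, 5.96% were higher in set A and 4.57% in set B. None of 18 NRF2 and 24 MYC and ribosome biogenesis genes was counted in either direction, and 1 of 21 heat shock and unfolded protein genes was. AKR1C2, an NRF2 target, differed by -1.2 in the means, but its arrays overlapped. Glycolysis and hypoxia genes went both ways, with 4 of 31 higher in set A and 3 in set B, as did cholesterol and lipid genes, with 3 each of 26. Of 29 genes of the G1/S transition 7 were higher in set B and 0 in set A, with a median of -0.64. The median level of this list was 11.33 in SCR and 10.21 in SID of set A. In set B it was 11.30 in replicate 3 and 11.26 in UT. Within set A, only SID thus had a median level below that of set B. G2/M genes had 1 of 29 higher in set B and a median of 0.17.

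Lineage lists had no common direction. Over all genes, 5.96% were higher in set A and 4.57% in set B. Of 40 epithelial genes, 11 were higher in set A and 6 in set B, with a median of 0.18. KRT19, a simple epithelial keratin, stood 4.18 higher in set A, while DSP, a desmosome protein, and MAL2, an apical transport protein, differed by -2.21 and -2.17. The gap of MAL2 lay mostly in SID, with 10.04 and 8.77 in SID and 12.75 and 12.82 in SCR of set A. Its set B values were 13.19 to 13.39. Of 37 mesenchymal genes, 8 were higher in set A and 5 in set B, with a median of 0.17. CDH11, a cadherin of mesenchyme, stood 4.21 higher, tenascin (TNC) 3.64 and fibronectin (FN1) 3.5, while the collagen COL5A2 and N-cadherin (CDH2) differed by -2.64 and -2.2. Of 24 basal genes, 6 were higher in set A, such as LAMB3 (3.42) and ITGA6 (3.05), and the desmosomal cadherin DSC3 was higher in set B (-3.84).

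Markers of other cell types were checked by whole lists, beside 5.96% of all genes higher in set A and 4.57% higher in set B. Of 13 blood cell genes, 4 were higher in set A: LAPTM5 (4.97), RAC2 (4.43), ARHGDIB (4.0) and LCP1 (3.78). Set A levels of LAPTM5 were 12.52 and 12.45 in SCR and 11.17 and 10.70 in SID, and set B levels were 6.56 to 6.86. ARHGDIB had 10.52 and 10.85 in SCR but 7.77 and 7.27 in SID of set A. LCP1 had 10.93 and 11.02 in SCR but 9.75 and 7.86 in SID of set A. RAC2 had 12.29 to 12.85 across set A. The other 9 blood cell genes were not counted in either direction. No melanocytic gene of 8 and 1 of 13 muscle genes was counted. Of 15 endothelial genes 3 were higher in set A, namely ESAM (2.13), PECAM1 (1.32) and KDR (1.29), and 2 in set B, namely ENG (-2.17) and ERG (-1.06). Among 18 neuronal genes SNAP25, a synaptic protein, was higher in set B (-2.61) and ENO2 in set A (1.82). SERPINA1, which codes for antitrypsin, was the only liver and gut gene of 14 counted (5.03), while LGR5, a stem cell receptor, differed by 1.04 with overlap. None of 14 housekeeping genes was counted, and their median was 0.07.

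Positional identity and gene clusters also parted the sets. Of 27 HOX genes, which mark position along the body axis, 7 were higher in set B and 1 in set A. Over all genes the shares were 4.57% and 5.96%. HOXC10 led with 10.50 to 10.64 in set B, 7.53 and 8.24 in SCR and 6.27 and 6.29 in SID of set A. In windows of 25 neighbouring genes, the lowest median was -3.47 on chromosome 15, where 18 of 25 genes were higher in set B. Most of these are copies of SNORD116, an imprinted small nucleolar RNA expressed from the paternal chromosome. Of 20 copies measured 18 were higher in set B, and their median level was 5.27 in set A and 9.37 in set B. Of 20 copies of the adjoining SNORD115, 0 were counted in either direction. Their median level was low in both sets, at 4.33 in set A and 4.37 in set B. The count of SNORD115 hence cannot show where the difference between the sets ends. The copies of each RNA are alike in sequence, so their probes may not measure them separately.

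The 3 highest windows all lay in zinc finger clusters of chromosome 19, with medians of 1.17, 1.07 and 1.01 and 15, 14 and 13 of 25 genes higher in set A. Most genes there code for KRAB zinc finger proteins, which silence repeated DNA. ZNF486 had 10.51 and 9.99 in SCR and 9.78 and 9.81 in SID of set A, against 5.55 to 5.99 in set B. Counted after these values were seen, 64 of 237 ZNF genes on chromosome 19 (27.0%) were higher in set A and 0 in set B. On other chromosomes 17 of 257 (6.6%) were higher in set A and 9 (3.5%) in set B. A run of 4 neighbouring cystatin genes on chromosome 20 (CST3, CST4, CST1 and CST2) was also higher in set A, by 1.34 to 6.06.

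SID against SCR was next compared inside each set, with limma on all 9 arrays. Below, a fall or rise means only that SID lay lower or higher than SCR. Inside set A, 379 of 19460 probes were higher in SID (1.95%) and 645 lower (3.31%), where the adjusted p was below 0.05 and the means differed by over 1 log2. The largest fall was in OLR1, the receptor for oxidized lipoprotein, with 11.40 and 11.49 in SCR and 6.14 and 6.29 in SID (-5.23, SE 0.12, adjusted p = 1.41e-06). UPK1B, a urothelial membrane protein, fell from 10.90 and 11.43 to 6.17 and 6.15 (-5.0, SE 0.16). IL24, a cytokine of the IL-10 family, rose from 6.67 and 6.59 to 11.29 and 12.05 (5.04, SE 0.21). NETO2, H2BC7 and SNORD116-14 also fell, and CEMIP, RGS4, SLC16A4 and the cholesterol exporter ABCA1 rose. With only 2 arrays per peptide, a plain two-sided t-test, which the methods name for comparisons in general and not for arrays, called 0 of these probes after adjustment and gave 3629 an unadjusted p under 0.05.

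Falls in SID of set A were counted by list, beside 3.31% of all probes called lower and 1.95% called higher. Of 29 genes of the G1/S transition 15 fell in SID and 0 rose, with a median of -1.02 beside 0.04 over all genes. Of 55 histone genes 22 fell and 0 rose, with a median of -0.76, though histone genes are alike in sequence. H4C5, an H4 histone, had 9.98 and 10.15 in SCR and 6.51 and 6.67 in SID of set A. The replication factor MCM5 fell by 1.14 and POLA2, a subunit of DNA polymerase alpha, by 1.45. Of 29 G2/M genes 3 fell and 0 rose. Of 32 interferon genes 11 fell and 2 rose, and of 40 epithelial genes 9 fell and 0 rose. In set B the SID array lay 0.25 above the SCR array for MCM5 and 0.34 above it for POLA2, and 0.02 below it for H4C5. Of 13 measured genes listed as low in the line, 6 fell in SID of set A and 0 rose, CDKN2A among them. Of 13 listed as high, 2 rose and 0 fell. Whether the differences inside set A follow the peptide or the cells behind each array was not tested.

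In set B, where each peptide has 1 array, SID and SCR differed little. The 99th percentile of the absolute difference over genes was 0.53 log2 between these 2 arrays and 1.73 between the SID and SCR means of set A. Whether SID minus SCR differed between the sets was tested as a difference of differences, with a spread shared over all 9 arrays. The sets in this test were themselves drawn from the values of these arrays, so it is no independent evidence that they differ. It was called for 948 of 19460 probes (4.87%), 335 with set A higher and 613 lower. NETO2, a receptor subunit, had the clearest difference, with -4.82 in set A and 0.18 in set B (difference -5.0, SE 0.17, adjusted p = 7.64e-05). Left-out arrays gave 550 (UT replicate 3) to 1545 (SID replicate 1), with 600 without SCR replicate 2. With a replicate block the count was 156, and with only the 6 peptide arrays it was 3 (3726 probes at an unadjusted p under 0.05), namely NETO2, OLR1 and H3C11. Set B gives no spread of its own between arrays of 1 peptide, and this limits the test.

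**Figure D3:**
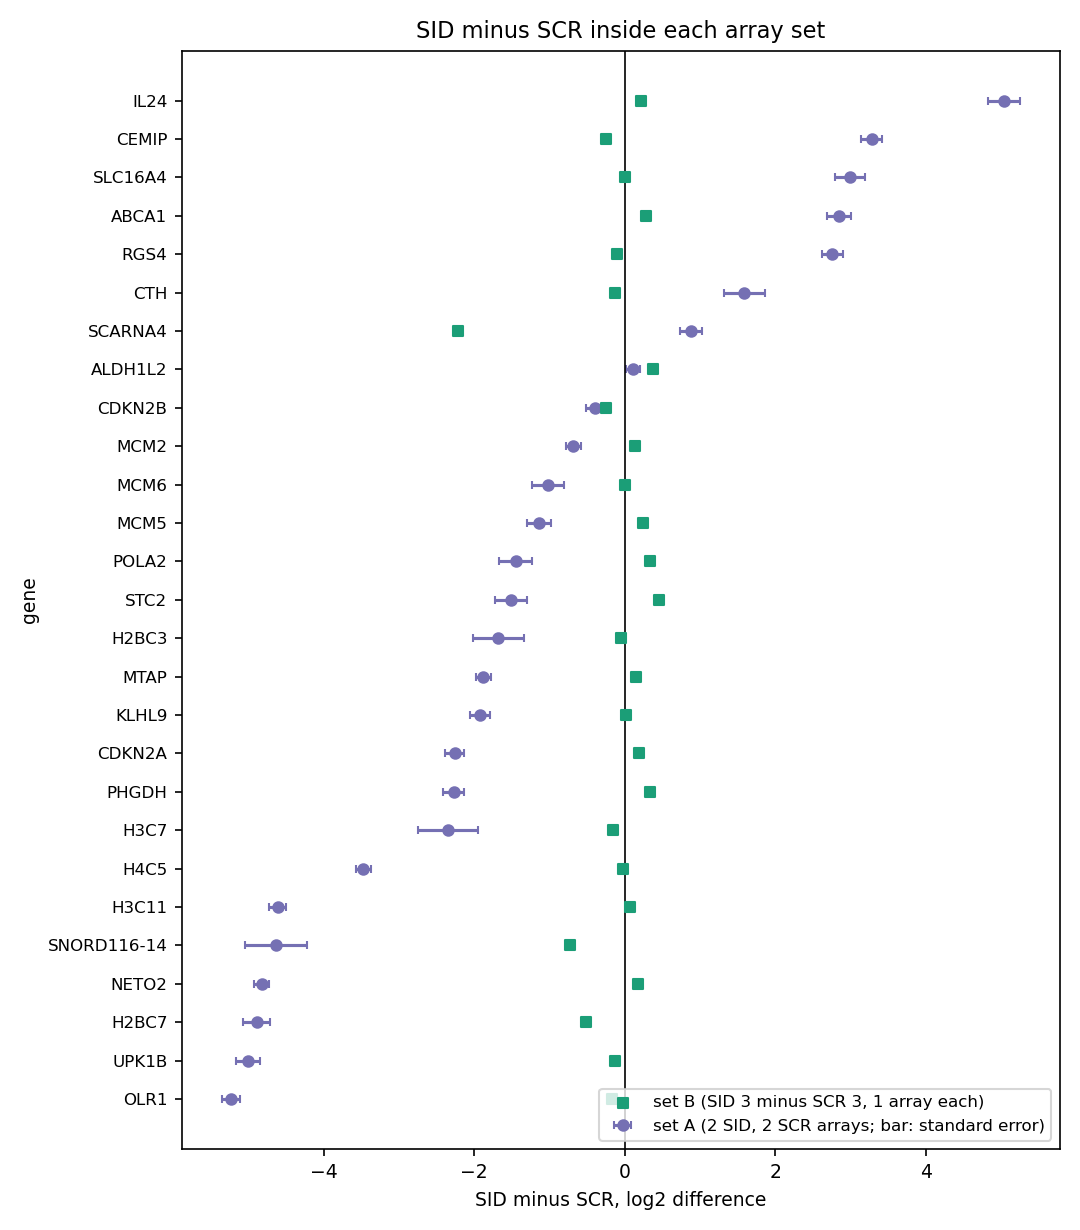
Circles give SID minus SCR in set A with their standard error from limma (2 arrays per peptide), and squares the same difference between the single arrays of set B, in log2 units on the x axis for genes named in the text or lists (y axis). OLR1 lies at -5.23 in set A and -0.17 in set B, and IL24 at 5.04 and 0.22.

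Pooled over the sets, SID and SCR could not be parted. With set as a block, limma called 0 of 19460 probes (0.0%), with 4034 at an unadjusted p under 0.05 and a lowest adjusted p of 0.171. Without replicate 3 of either peptide, the same model rests on set A alone and called 1024 probes. Inside set B, replicate 3 of both peptides differed from UT at 6 probes (0.0308%), 1 higher and 5 lower. ACTG2, a smooth muscle actin, had 8.78 in SCR and 9.42 in SID, against 7.46, 7.43 and 7.29 in UT (1.71, SE 0.09, adjusted p = 0.00299). In the mean of the replicate 3 arrays, SLC46A3, a lysosomal transporter, lay 1.28 below UT. ABRACL, CPM, ERO1B and ANKRD13C-DT lay 1.00 to 1.07 below UT. Leaving out 1 array at a time left 0 to 5 probes. The count was 0 without UT replicate 2, SCR replicate 1, SCR replicate 2 or SID replicate 3, 1 without UT replicate 1 or 3, and 2 without SCR replicate 3.

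Genes that set SCR apart from SID inside set A differed in how they sat against set B. In 45 genes SCR of set A lay over 2 log2 above set B, with no overlap, while SID of set A lay within 1 log2 of it. UPK1B, the histone H3C11, CDH1 and the placental cadherin CDH3 were among them. In 40 genes SID alone stood above set B, such as IL24, RGS4, the integrin subunit ITGB3 and complement factor CFB. In 35 genes SID alone stood below it, such as NETO2, MAL2 and CD109, a TGF-beta co-receptor, and in 6 genes SCR alone stood below it. Both peptides stood above set B in 274 genes and below it in 202. These genes were picked by their values, so the counts are a description.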

How the data were processed

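RNA of 9 MDA-MB-231 samples was measured on Affymetrix human gene arrays. The values are log2 signals per probe (transcript cluster), as deposited by the authors, made with RMA. The submitters' processing notes also list Transcriptome Analysis Console and Expression Console, with no versions. No source gives the log scale, and base 2 was inferred from the range of 3.75 to 14.94 and array medians of 7.68 to 7.77. RMA equalizes arrays, so a shift shared by all genes would not be seen. The number of arrays limits the precision.

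Of 33297 probes, 19460 had 1 gene symbol, 1754 several and 12083 none, and 19429 of the first kind matched RefSeq (GRCh38.p14) by Entrez ID, which gave gene order. The brightest probe of a gene stood for it. The members of the sets, the 39 gene lists and the rule for named genes (the 10 widest gaps each way, the 6 markers, the 4 widest members of each list, all line markers, leading genes of windows and up to 5 called genes per contrast and direction) were chosen with earlier results of these data known. Genes outside that rule are low in 1 set and high in the other, or neighbours, or were picked after their values were seen.

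SID minus SCR in set A, its difference from set B, replicate 3 against UT and SID minus SCR with set as a block were tested with limma 3.58.1 (R 4.3.3) on 9 arrays, with 5 group-by-set means in all but the last, with Benjamini-Hochberg adjustment over 19460 probes, and checked on simulated data. Same-numbered SCR and SID arrays deviated together from their group means (r 0.774, 0.575 and 0.791), but so did replicate 1 of SCR with replicate 2 of SID (0.604), and the number goes with the set. No array equalled another. Alternatives were other scalings, filters, probe choices and left-out arrays.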

Additional observations from a re-analysis of the deposited data

Results flagged for a closer look

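The 10 genes given here had the widest called differences between the sets in SID minus SCR, up to 5 each way. They were picked from limma's test of the difference itself on all 9 arrays. Other named genes were called too, such as CDH1 (-3.64) and H4C5 (-3.45). Set A minus set B in this difference was -5.06 for OLR1, -5.0 for NETO2, -4.87 for UPK1B, -4.68 for H3C11 and -4.38 for H2BC7. It was 4.83 for IL24, 3.52 for CEMIP, 3.09 for SCARNA4, 2.99 for SLC16A4 and 2.86 for RGS4. SCARNA4, a small RNA of Cajal bodies, differed through 1 array of set B, since SID replicate 3 had 6.86 and SCR replicate 3 had 9.07, while set A had 8.12 to 9.09. With only the 6 peptide arrays in the fit, OLR1, NETO2 and H3C11 stayed past the threshold and the other 7 did not.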

How the results depend on the processing

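Counts of probes that part the sets were within 1.5 times under every alternative run, at 1014 to 1340 higher in set A and 839 to 1178 higher in set B, and genes low in 1 set and high in the other numbered 44 to 50. With the replicate block, SID minus SCR was called for 1011 probes in set A, and 156 probes were called for the difference between sets, beside 948. With only the arrays compared, the difference between sets was called for 3 probes. A plain t-test called 0 probes in set A and 0 for replicate 3 against UT (1894 at an unadjusted p under 0.05). Replicate 3 against UT gave 12 probes without dim probes and 1 with all probes. Leaving out 1 array gave 759 to 1439 probes for set A, 0 to 5 for replicate 3 against UT, 550 to 1545 for the difference between sets and 0 to 1024 for SID minus SCR with set as a block. The 1024 came when either peptide lacked its replicate 3, which leaves set A alone in that contrast. The difference between sets gave 550 when UT lacked its replicate 3, 600 when SCR lacked replicate 2 and 1545 when SID lacked replicate 1, and could not be fitted without SCR or SID replicate 3. Of 546 list medians under alternatives 541 moved by less than the spread between arrays, and no named gene changed direction. Among tested results of named genes, however, 72 were weaker and 308 the same, and among counts 18 moved and 85 did not. With the mean of all probes, set A minus set B was 5.08 for SAA2, -4.75 for TARP and 4.74 for ZNF626. The median of proteases and inhibitors was 0.42 without SCR replicate 2. That of genes listed as high in the line was 1.70 without SID replicate 2. With set B as SCR and SID replicate 3 alone, it was 1.56. In that setting the NRF2 median was 0.06 beside -0.20, a change of sign, and that of p53 targets was -0.24 beside -0.15. The low and high gene counts were not run without dim probes or with all probes. The cause of the other changes was not tested.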
